A study of Mus musculus with 16 samples.

Results

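The 41 genes described here are those that build and run the skeletal muscle fibre, and they were picked by name from the deposited table of 41411 genes. They comprise the fast, slow and developmental myosin heavy chains, the light chains and myosin-binding proteins, the thin filament, the Z-disc and titin, calcium handling and excitation, fuel and oxygen supply, and 3 myogenic regulators. Each name was found once. Whole esophagus of C57BL/6 mice was profiled with CEL-Seq, which reads a short stretch at the 3' end of each transcript. Animals were wild type (WT) or Il13ra1-/- (KO), lacking the receptor chain through which IL-13 signals together with the IL-4 receptor. They received oxazolone (OXA), a hapten that provokes allergic inflammation and serves here as a model of eosinophilic esophagitis, or vehicle, which gave the 4 groups WT vehicle, WT OXA, KO vehicle and KO OXA with 4 libraries each. All 4 groups share the strain and the tissue. The labels name no age, sex, dose or cell type for the deletion, and nothing in them says that libraries came from separate animals, so p-values measure the spread between these libraries.

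Skeletal muscle contracts when calcium released from the sarcoplasmic reticulum binds troponin on the thin filament and lets myosin pull on actin. Most of its contractile proteins exist as fast and slow isoforms from separate genes, and the mix of isoforms sets the speed and endurance of a fibre. In mice the outer muscle coat of the esophagus is skeletal muscle along nearly all of its length, and fibre genes are abundant in RNA of the whole organ. In such bulk RNA, fewer muscle fibres and less RNA per fibre cannot be told apart.

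Values below are the authors' deposited normalized counts, that is, the reads of a gene divided by 1 size factor per library. Fold changes are differences of the mean log2(value + 1) between groups. A gene was called when its adjusted p from limma was under 0.05. Limma fits a linear model to each gene and steadies its spread with that of all genes. A gene was tested when 4 or more libraries reached a value of 5, which held for 39 of the 41 members. Depth moved with the groups: recovered reads ranged from 5.61 to 9.55 M with vehicle and from 20.2 to 27.3 M with OXA in WT mice, and from 7.91 to 16.5 M and 8.82 to 15.2 M in KO mice. The share of mitochondrial ribosomal RNA was 1.10 to 1.71% in WT vehicle and 0.445 to 0.460% in WT OXA, and 0.694 to 1.73% in KO vehicle and 0.570 to 1.17% in KO OXA. The part of depth and of RNA composition in the results was not tested beyond thinning every library to 5.61 M reads. That left 15 members lower in WT, beside 2508 of all 16748 tested genes. Of the members 23 overlap another annotated gene, and the strand setting of the counting is not given in the sources used here, so reads of such pairs cannot be told apart. Replicate 4 of KO OXA stood apart, with 23730 genes having a read against 16633 to 21763 in the other libraries. Its title code has the letter G where the other KO OXA libraries have F, and results that rest on it are given with and without it. Il13ra1 itself had a mean of 191 ± 39.8 (SD, n = 4) in WT vehicle and 721 ± 123 in WT OXA, against 50.1 ± 14.2 in KO vehicle and 99.1 ± 56.9 in KO OXA; 3' tags outside a deleted stretch would not check the deletion.

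Promoters are shown here for the fast-fibre genes Myh4 and Pvalb and the slow-fibre gene Tnnt1. In WT mice Myh4 and Pvalb had the steepest falls among the members and Tnnt1 the only rise that was called. Not every member followed its fibre type: Myl3, a slow-fibre light chain, fell, and fast Myh1 and Tnnc2 were not called. Each is the 250 bases before the annotated start in RefSeq (build GRCm38.p6), written 5′ to 3′ on the gene's strand. Capitals mark matches to the MEF2 consensus, the CArG box or the E-box CAGCTG, sequences known to be bound by the MEF2, serum response factor and MyoD families. Myh4 lies at chr11:67237562-67237811 on the plus strand, Pvalb at chr15:78206401-78206650 on the minus strand and Tnnt1 at chr7:4515976-4516225 on the minus strand. Pvalb has a second annotated start, whose window holds none of the 3 motifs.
Myh4: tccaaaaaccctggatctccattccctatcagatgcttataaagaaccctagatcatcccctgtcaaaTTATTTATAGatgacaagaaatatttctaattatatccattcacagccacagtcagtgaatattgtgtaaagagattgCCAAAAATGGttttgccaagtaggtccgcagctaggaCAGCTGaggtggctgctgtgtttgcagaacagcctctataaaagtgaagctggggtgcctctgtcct
Pvalb: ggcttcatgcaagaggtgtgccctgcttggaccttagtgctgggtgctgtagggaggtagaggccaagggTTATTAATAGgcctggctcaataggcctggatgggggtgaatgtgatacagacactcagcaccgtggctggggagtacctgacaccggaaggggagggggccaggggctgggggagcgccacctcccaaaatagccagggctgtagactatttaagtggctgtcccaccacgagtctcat
Tnnt1: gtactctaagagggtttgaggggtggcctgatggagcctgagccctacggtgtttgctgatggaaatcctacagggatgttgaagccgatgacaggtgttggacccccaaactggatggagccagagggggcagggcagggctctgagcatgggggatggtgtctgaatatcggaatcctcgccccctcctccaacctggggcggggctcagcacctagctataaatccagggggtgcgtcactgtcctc
The Myh4 window held all 3 motifs, the Pvalb window the MEF2 consensus alone and the Tnnt1 window none of them. The window of Mybpc2, a myosin-binding protein of fast fibres that also fell in WT mice, held none of them either. RefSeq gave 41 promoter windows for 35 of the members, several genes having more than 1 start. On either strand, 43.9% of these windows held CAGCTG against 13.0% of all 32851 windows. The MEF2 consensus was in 17.1% of the members' windows against 2.92% of all, and the CArG box in 9.76% against 1.47%. The general E-box CANNTG, of which CAGCTG is one form, was in 85.4% against 66.2%, and TATAAA was in 19.5% against 12.4%. A match is a description of the letters and says nothing of what binds there in these mice.

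In WT mice a subset of the fibre genes fell with OXA, while most members did not pass the test. Of 39 tested members, 15 fell, 1 rose and 23 were not called. The fallen members were 38.5% of those tested, beside 16% of all tested genes, and the risen member was 2.56%, beside 18%. The median log2 fold change was -0.40 over the members and 0.10 over all tested genes, and 28 members had a value below 0. The members' median was -0.70 without WT vehicle replicate 2, -0.24 without WT vehicle replicate 4 and -0.63 without WT OXA replicate 1. The steepest falls were in Myh4, the heavy chain of the fastest fibres, at -2.63 ± 0.33 (SE), and in Pvalb, the calcium buffer of fast fibres, at -2.25 ± 0.31. Tnnt1, the slow troponin T, was the member that rose, by 1.87 ± 0.33. Summed over all 41, the members made up 4.29% ± 1.13 (SD, n = 4) of the deposited values in WT vehicle and 3.23% ± 1.07 in WT OXA, ranges that overlap. Scaling to equal library totals moved the median of all tested genes by 0.31 and gave 13 members lower and 3 higher, with a median of -0.08 over the members against 0.41 over all. Quantile normalization moved the median of all genes by -0.12 and gave 9 members lower and 3 higher. Of all 16748 tested genes, 1496 were lower and 5107 higher with equal totals, and 2937 and 2886 with quantile normalization.

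**Figure D1:**
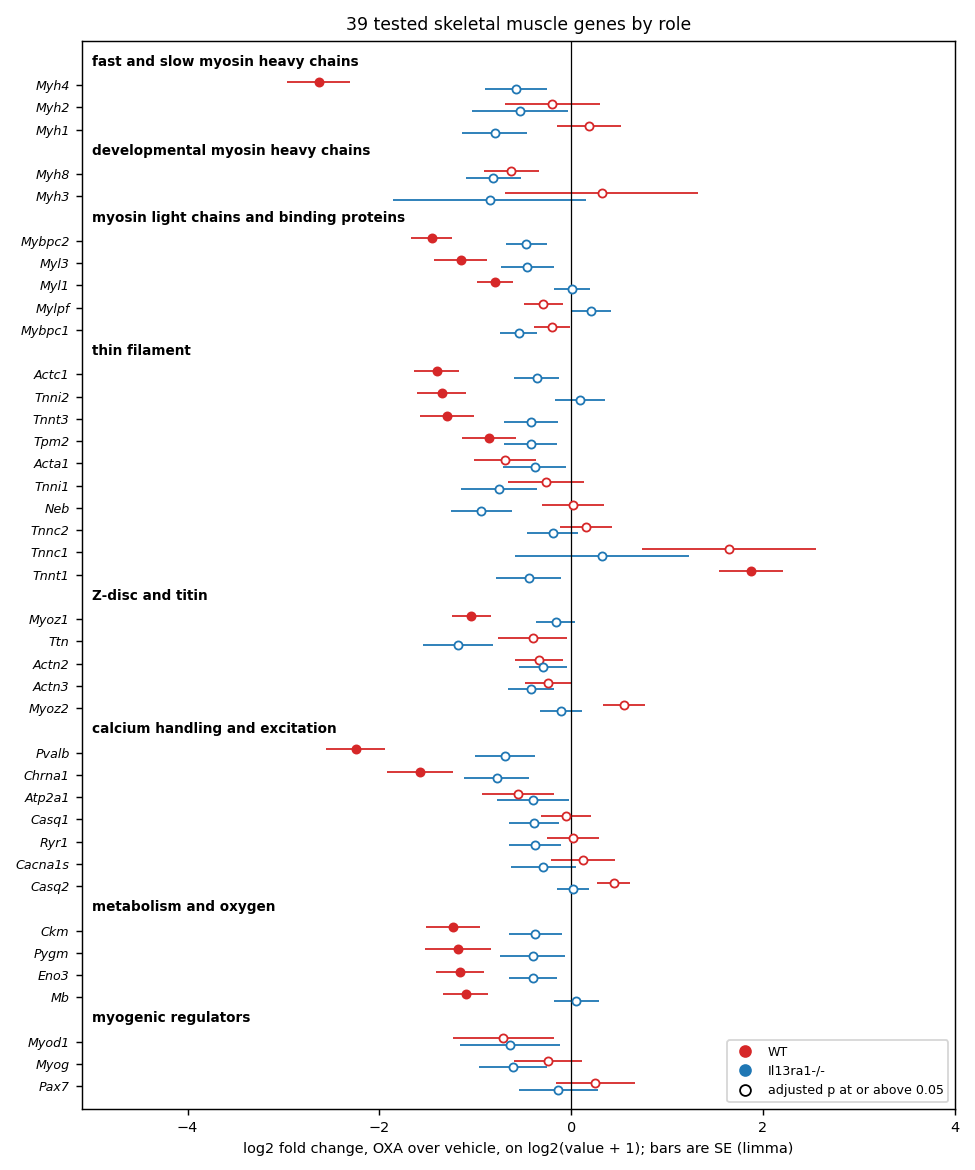
Log2 fold change of OXA over vehicle for the 39 tested members, grouped by role, in WT (red) and in Il13ra1-/- (blue) mice, on log2(value + 1), with bars of 1 SE from limma (n = 4 libraries per group). Filled points passed an adjusted p of 0.05: 16 in WT, from Myh4 at -2.63 to Tnnt1 at 1.87, and none in Il13ra1-/- mice.

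Among the myosin heavy chains, the motors of the thick filament, the fast isoform Myh4 fell and its neighbours in the same gene cluster did not pass the test. A cluster of 5 such genes, Myh3, Myh2, Myh1, Myh4 and Myh8 in that order, lies within 230 kb of chromosome 11 (67078300 to 67308634, GRCm38), and reads could be shared between such near-identical copies, so single members are uncertain. Myh4 (67238029 to 67260446) stood at 10968, 3988, 9032 and 6879.6 in the WT vehicle libraries and 1469, 802, 867 and 1788 in the WT OXA libraries. Every WT OXA library lay below every WT vehicle library, and the OXA mean was 0.16 of the vehicle mean (-2.63 ± 0.33 SE, adjusted p = 5.92e-06). Myh1, the neighbouring fast isoform of type 2X fibres, stood at 7521, 4491, 6132 and 8772 in the WT vehicle libraries and 9653, 10429, 6137 and 4949 in the WT OXA libraries. Those ranges overlapped, and its change was 0.19 ± 0.34 SE, adjusted p = 0.706.

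Myh2, the isoform of fast oxidative fibres, was scarce, at 157, 52.5, 96.7 and 234 in the WT vehicle libraries and 212, 168, 55.7 and 54.0 in the WT OXA libraries. Within WT OXA replicates 1 and 2 lay well inside the vehicle range and replicates 3 and 4 at its lower end (-0.20 ± 0.50 SE, adjusted p = 0.792). Myh8, the perinatal isoform, ranged from 14650 to 33357 in WT vehicle and from 9775 to 19995 in WT OXA, with overlap (-0.63 ± 0.29 SE, adjusted p = 0.0994). Without WT vehicle replicate 2 the adjusted p of Myh8 was 0.0347. Myh3, the embryonic isoform, stayed at or under 24.7 in every WT library. Myh7, the slow heavy chain, had no read in WT vehicle, which allows up to 0.0981 CPM (3 reads of 30.6 M, as counts per M reads, counting error only). In WT OXA it had 45 reads, nearly all in replicate 1, whose value was 15.6, and it was too scarce to test.

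Light chains and myosin-binding proteins, which stabilise and tune the myosin heads, gave 3 falls among 5 tested, beside 16% of all tested genes. Mybpc2, the fast myosin-binding protein C, stood at 1904, 1392, 2125 and 2144 in the WT vehicle libraries and 938, 688, 612 and 542 in the WT OXA libraries, with no overlap (-1.45 ± 0.21 SE, adjusted p = 3.97e-05). Mybpc1, its slow counterpart, ranged from 3111 to 4531 and from 2678 to 4104, with overlap (-0.20 ± 0.19 SE, adjusted p = 0.455). Myl3, a ventricular and slow-fibre essential light chain, stood at 19689.6, 13776, 18395 and 27391 in the WT vehicle libraries and 13735, 10249.9, 7250.2 and 5472 in the WT OXA libraries. The highest OXA library lay just under the lowest vehicle library, and Myl3 fell by 1.15 ± 0.28 on the log2 scale (adjusted p = 0.0032). For Myl1, the fast essential light chain, the values were 18168, 15513, 15899 and 20066 in the WT vehicle libraries and 12020.4, 9769, 8892 and 9539 in the WT OXA libraries, again without overlap (-0.79 ± 0.19 SE, adjusted p = 0.00265). Mylpf, the fast regulatory light chain, was not called (-0.29 ± 0.20 SE, adjusted p = 0.293), and Myl2, the slow regulatory light chain, had no read in WT vehicle and 29 in WT OXA.

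The thin filament carried both the rise and 4 falls among 10 tested members, beside 18% and 16% of all tested genes. Tnnt3, the fast troponin T, stood at 84203, 53514, 74550.2 and 91334 in the WT vehicle libraries and 43435, 36722, 24876 and 21365 in the WT OXA libraries. All 4 OXA libraries were below all 4 vehicle libraries (-1.29 ± 0.28 SE, adjusted p = 0.00138). Its slow counterpart Tnnt1 stood at 53.7, 40.2, 23.7 and 55.7 in the WT vehicle libraries and 251, 100.6, 181 and 122 in the WT OXA libraries, so every OXA library was above every vehicle library (1.87 ± 0.33 SE, adjusted p = 0.000268). The WT OXA mean of Tnnt1 was 3.77 times the vehicle mean. Tnni2, the fast inhibitory troponin, stood at 24564, 16427, 16930.0 and 22845 in the WT vehicle libraries and 10128, 8666, 7081 and 5916 in the WT OXA libraries. It fell without overlap (-1.35 ± 0.26 SE, adjusted p = 0.000461), while slow Tnni1, at 48.2, 49.5, 36.5 and 51.3 in the WT vehicle libraries and 55.5, 36.4, 29.8 and 35.1 in the WT OXA libraries, was not called (-0.26 ± 0.39 SE, adjusted p = 0.648). Tnnc2, the fast calcium-binding troponin, was not called. Its values were 38710.1, 25553, 31481 and 45862 in the WT vehicle libraries and 53231, 43673, 32608 and 28895 in the WT OXA libraries, with broad overlap (0.15 ± 0.27 SE, adjusted p = 0.697).

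Actc1, the cardiac actin that skeletal muscle also expresses, stood at 23283, 24529, 24377 and 24799.6 in the WT vehicle libraries and 12189, 10604, 6915 and 7898 in the WT OXA libraries. The vehicle libraries were tightly grouped and all lay above the OXA libraries (-1.40 ± 0.23 SE, adjusted p = 0.000137). Acta1, the main skeletal actin, ranged from 26652 to 76244 in WT vehicle and from 20044 to 41241 in WT OXA, with overlap (-0.69 ± 0.33 SE, adjusted p = 0.11). Acta1 passed without WT vehicle replicate 2 and in DESeq2, with a smallest adjusted p of 0.0277. Tpm2, a tropomyosin, stood at 27064, 16649, 24021 and 34752 in the WT vehicle libraries and 19898, 17552, 10743 and 9205 in the WT OXA libraries. Its groups overlapped, and the fall (-0.86 ± 0.28 SE, adjusted p = 0.023) was no longer called without WT vehicle replicate 1 (adjusted p = 0.0513) or 4 (0.0796), or without WT OXA replicate 3 (0.0779) or 4 (0.0905), nor with no filter, equal totals or quantile normalization (up to 0.430). Neb, the giant ruler of the thin filament, was not called (0.02 ± 0.32 SE, adjusted p = 0.971). Tnnc1, the slow calcium-binding troponin, stood at 0, 10.8, 0 and 0 in the WT vehicle libraries and 7.98, 7.70, 5.89 and 1.08 in the WT OXA libraries. It met the filter through 1 vehicle and 3 OXA libraries and was not called (1.64 ± 0.91 SE, adjusted p = 0.173).

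**Figure D2:**
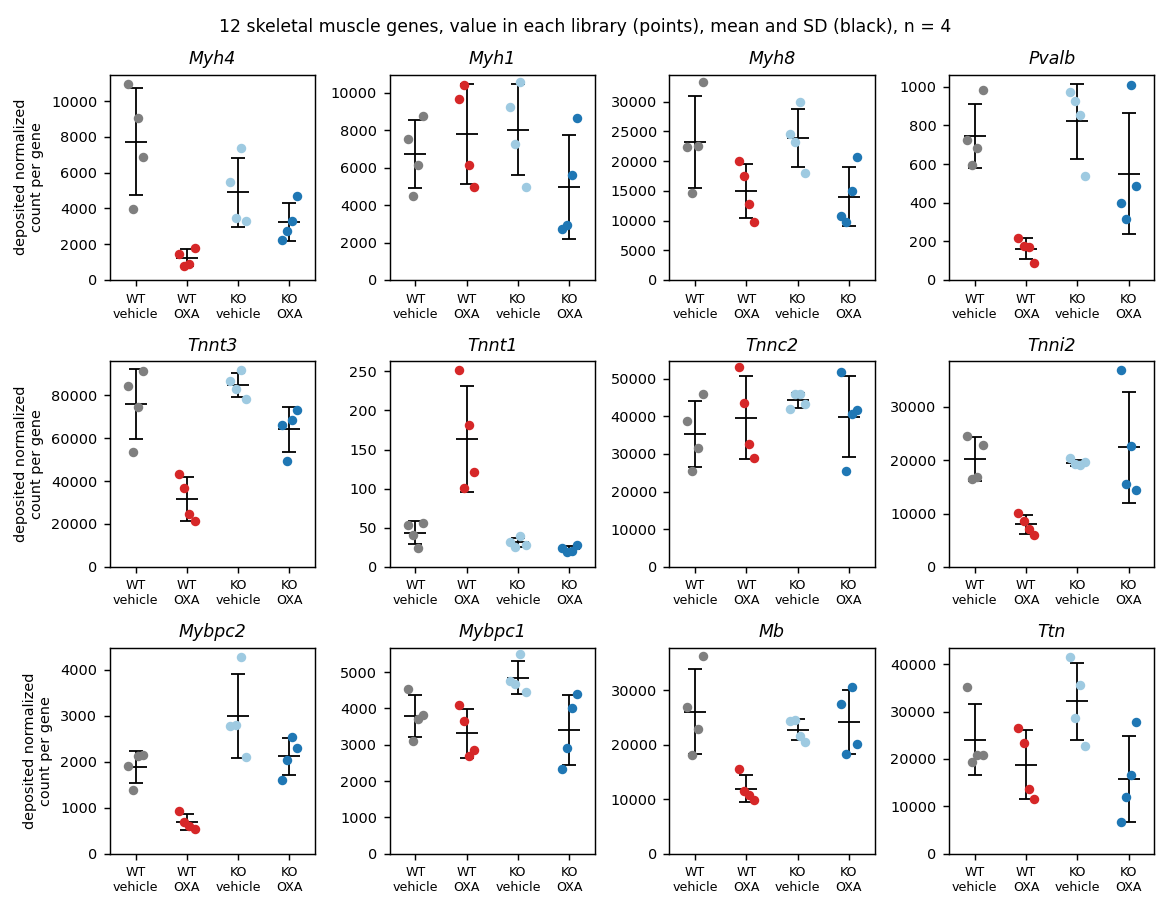
Deposited normalized count of single fibre genes in each of the 16 libraries (points), with the mean and SD (black, n = 4 per group), on linear axes. Myh4, Pvalb, Tnnt3, Tnni2, Mybpc2 and Mb lay lower in every WT OXA library than in every WT vehicle library, Tnnt1 lay higher, and Myh1, Myh8, Tnnc2, Mybpc1 and Ttn overlapped.

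In the Z-disc, which anchors the thin filaments, and in titin, the elastic spring of the sarcomere, 1 of 5 members fell. Beside 16% of all tested genes lower, that count does not set this role apart. Myoz1, the calcineurin-binding protein of fast fibres, stood at 2553, 2091, 2439 and 3615 in the WT vehicle libraries and 1869, 1312, 1135 and 938 in the WT OXA libraries, without overlap (-1.04 ± 0.21 SE, adjusted p = 0.000653). Myoz2, the slow and cardiac relative of Myoz1, ranged from 161 to 238 and from 234 to 352 and was not called (0.55 ± 0.22 SE, adjusted p = 0.0584). Myoz2 was called without WT vehicle replicate 4, KO vehicle replicate 4 or KO OXA replicate 1, with a smallest adjusted p of 0.00294 over all alternatives. The actin cross-linkers Actn2 and Actn3, at -0.34 ± 0.25 and -0.24 ± 0.24, and Ttn, at -0.40 ± 0.36, were not called, with adjusted p-values of 0.326, 0.481 and 0.42.

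Calcium handling and excitation gave 2 falls among 7 members, too few to set apart from the 16% of all tested genes that were lower. Pvalb, which speeds relaxation of fast fibres by binding calcium, stood at 724, 596, 684 and 981 in the WT vehicle libraries and 215, 173, 169.9 and 87.5 in the WT OXA libraries. The highest OXA library was far under the lowest vehicle library, and the OXA mean was 0.216 of the vehicle mean (-2.25 ± 0.31 SE, adjusted p = 1.86e-05). Chrna1, a subunit of the muscle acetylcholine receptor, stood at 229.9, 338, 221 and 412 in the WT vehicle libraries and 152, 145, 72.6 and 54.0 in the WT OXA libraries, without overlap (-1.58 ± 0.34 SE, adjusted p = 0.00139). The core of the release and uptake machinery was not called: the release channel Ryr1 (0.02 ± 0.27), its voltage sensor Cacna1s (0.12 ± 0.34), the fast calcium pump Atp2a1 (-0.55 ± 0.38) and the calcium store protein Casq1 (-0.06 ± 0.26). Casq2, the slow and cardiac calsequestrin, ranged from 647 to 1027 in WT vehicle and from 1066 to 1228 in WT OXA. Those ranges did not overlap, yet its adjusted p was 0.0502 (0.44 ± 0.17), just over the threshold, and it was called in 13 alternatives, with a smallest adjusted p of 0.00139. These included the fits without WT vehicle replicate 4, KO vehicle replicate 4 and KO OXA replicates 1, 2 or 4.

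All 4 members of fuel and oxygen supply fell, beside 16% of all tested genes. Ckm, the muscle creatine kinase that buffers ATP, stood at 44702, 28245, 36554 and 52891 in the WT vehicle libraries and 25278, 19934, 13962 and 11508 in the WT OXA libraries (-1.23 ± 0.28 SE, adjusted p = 0.00224). Eno3, the muscle enolase of glycolysis, stood at 8212, 5277, 7646 and 10149 in the WT vehicle libraries and 4929, 4300.3, 2515 and 2505 in the WT OXA libraries (-1.16 ± 0.25 SE, adjusted p = 0.00136). For Mb, the oxygen store myoglobin, the values were 27002, 18134, 22876 and 36413 in the WT vehicle libraries and 15630.0, 11434, 10866 and 9948 in the WT OXA libraries (-1.10 ± 0.23 SE, adjusted p = 0.00117). In all of these the OXA libraries lay under the vehicle libraries. Pygm, the muscle glycogen phosphorylase, stood at 21895, 11579, 24455 and 32742 in the WT vehicle libraries and 15708, 11175, 7300.4 and 6024 in the WT OXA libraries. Its groups overlapped, and the fall (-1.18 ± 0.34 SE, adjusted p = 0.0122) was not called without WT OXA replicate 4 (adjusted p = 0.0511), with equal totals or with quantile normalization (up to 0.222). The myogenic regulators Myod1, Myog and Pax7, which drive muscle differentiation and mark satellite cells, were not called, at -0.71 ± 0.52, -0.24 ± 0.35 and 0.25 ± 0.41. Myod1 passed without WT vehicle replicate 2 alone (adjusted p = 0.0445).

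Partner isoforms were also set against each other within each library, where scaling between libraries has no effect beyond the added 1. Myh1 to Myh4 and Myh2 to Myh4 compare fast isoforms with each other, and the other planned pairs set slow against fast. Each ratio is compared between groups only, since tag capture differs between genes, and is given without a test. In WT mice the log2 ratio of Tnnt1 to Tnnt3 was -10.79 ± 0.53 (SD, n = 4) with vehicle and -7.62 ± 0.61 with OXA, and in KO mice it was -11.37 ± 0.19 and -11.40 ± 0.20. The ratio in WT OXA stood apart from the other 3 groups, whose libraries overlapped. Tnni1 to Tnni2 gave -8.73 ± 0.27, -7.64 ± 0.25, -8.76 ± 0.47 and -9.60 ± 0.75 in the same order of groups. Myh1 to Myh4 gave -0.15 ± 0.47, 2.68 ± 0.92, 0.73 ± 0.24 and 0.51 ± 0.38. The WT OXA libraries again lay above all others, at 1.47 to 3.70. Myh2 to Myh4 gave -5.93 ± 0.73, -3.50 ± 1.24, -6.32 ± 0.59 and -6.28 ± 0.33, where the lowest WT OXA library lay at -5.02, under the highest WT vehicle library at -4.87. Casq2 to Casq1 overlapped across the groups, at means of -1.03, -0.53, -1.14 and -0.73.

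Ratios of 3 further pairs were formed after their values were seen. Tnnt3 and Tnnc2 are fast subunits of the same troponin complex, and their log2 ratio was 1.11 ± 0.11 (SD, n = 4) with vehicle and -0.34 ± 0.09 with OXA in WT mice, and 0.94 ± 0.10 and 0.72 ± 0.25 in KO mice. The SD within WT OXA was small although both genes varied widely among those 4 libraries. Pvalb to Casq1 gave -1.22 ± 0.26, -3.42 ± 0.33, -1.20 ± 0.25 and -1.50 ± 0.57, and Mybpc2 to Mybpc1 gave -1.01 ± 0.23, -2.26 ± 0.16, -0.74 ± 0.29 and -0.66 ± 0.19. In each of these pairs the 4 WT OXA libraries lay below all other libraries.

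**Figure D3:**
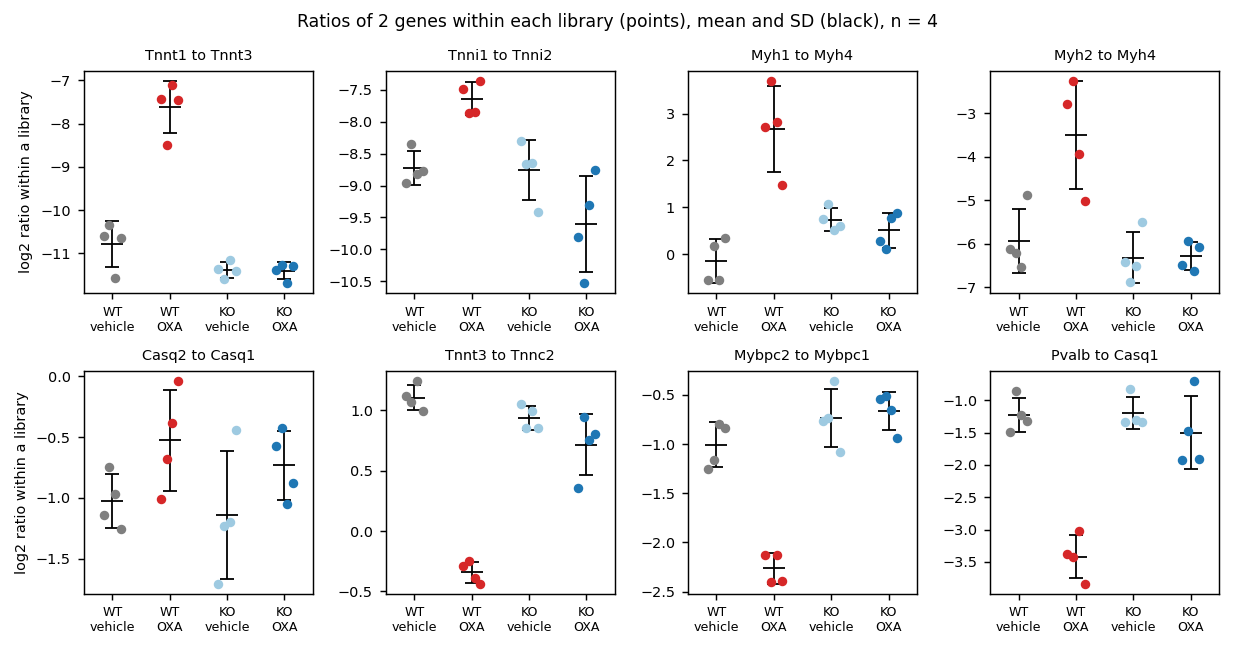
Log2 ratio of 2 fibre genes within each library, on log2(value + 1) (points), with the mean and SD (black, n = 4 per group); the last 3 pairs were chosen after their values were seen. For Tnnt1 to Tnnt3 the WT OXA libraries lie at -8.50 to -7.10 and all others at or below -10.34.

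As shares of the summed value of 6 myosin heavy chain genes, Myh4 was 20.4% ± 5.89 (SD, n = 4) with vehicle and 5.66% ± 3.52 with OXA in WT mice, and 13.0% ± 2.21 and 14.9% ± 1.97 in KO mice. Its range in WT OXA, 2.78 to 10.8%, lay below that in WT vehicle, 14.0 to 26.7%. Myh1 made up 17.9% ± 1.31, 31.9% ± 2.86, 21.5% ± 1.89 and 21.3% ± 3.77 in the same order, so that the share of Myh1 was higher in WT OXA while its level was not called. The perinatal Myh8 kept a mean share between 61.3% and 65.4% in all 4 groups. Myh2, Myh3 and Myh7 had mean shares of at most 0.467%.

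**Figure D4:**
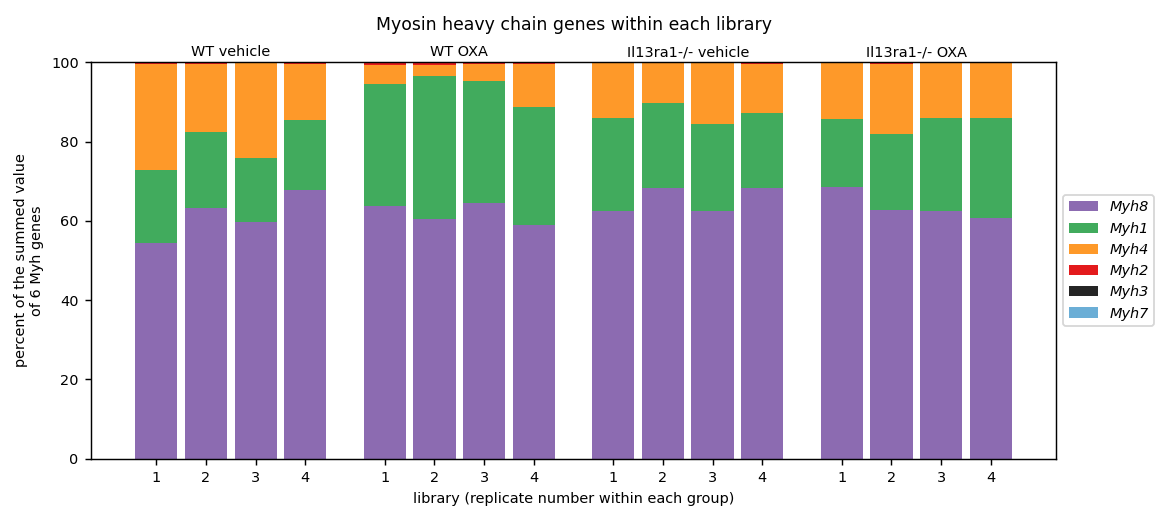
Share of each myosin heavy chain gene in the summed deposited value of 6 such genes, in percent, for each of the 16 libraries, stacked to 100. The orange Myh4 segment is 2.78 to 10.8% in WT OXA and at least 10.2% in every other library.

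In KO mice none of the 39 tested members was called after OXA by limma, edgeR or DESeq2, beside 0.0896% of all tested genes that fell and 1.81% that rose. DESeq2 gave no adjusted p for 2 of the members here. At an unadjusted p under 0.05, limma gave 8 members lower and 0 higher. The median log2 fold change over the members was -0.40 against -0.01 over all tested genes, and 33 members had a value below 0. The members' median was -0.25 without KO OXA replicate 2 and -0.53 without replicate 4. The 5 members with the smallest p were Ttn, Neb, Mybpc1, Myh8 and Myh1. Ttn stood at 41601, 28714, 35562 and 22809 in KO vehicle and 6694, 11875, 16570.2 and 27819 in KO OXA (-1.18 ± 0.36 SE, adjusted p = 0.114), with OXA replicate 4 the highest of its group and inside the vehicle range. Neb, Myh8, Myh1 and Mybpc1 had -0.94 ± 0.32, -0.81 ± 0.29, -0.80 ± 0.34 and -0.55 ± 0.19. Without KO OXA replicate 4 these 5 genes were called lower, with adjusted p-values of 0.00933 (Ttn), 0.0196 (Neb), 0.0348 (Myh8), 0.0383 (Myh1) and 0.0375 (Mybpc1). In that fit 157 of all 16522 tested genes were called lower and 875 higher, so calls were more frequent over the whole table too. The members' share of all values was 4.56% ± 0.776 (SD, n = 4) in KO vehicle and 3.33% ± 0.864 in KO OXA.

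Genes that passed the test in WT mice had the following values in KO mice. Myh4 stood at 5492, 3466, 7354 and 3291 in KO vehicle and 2220.5, 2741, 3299 and 4666 in KO OXA, with overlap (-0.57 ± 0.33 SE, adjusted p = 0.453). Pvalb stood at 972, 925, 851 and 540.0 in KO vehicle and 396, 314, 1009 and 484 in KO OXA, where OXA replicate 3 was the highest of all KO libraries (-0.69 ± 0.31 SE, adjusted p = 0.314). Tnnt1 was not called, at 32.2, 25.9, 39.6 and 27.9 in KO vehicle and 23.8, 19.1, 19.8 and 28.4 in KO OXA (-0.45 ± 0.33 SE, adjusted p = 0.594). For Tnni2 the values were 20326, 19204, 19064 and 19665 in KO vehicle and 36991, 15606, 22613 and 14447 in KO OXA, with OXA replicate 1 the highest (0.09 ± 0.26 SE, adjusted p = 0.914). Tnnt3 stood at 86775, 83213, 91787 and 78433 in KO vehicle and 66139, 49195, 68620.3 and 72994 in KO OXA, and each OXA library was below each vehicle library although the change was not called (-0.42 ± 0.28 SE, adjusted p = 0.536).

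The difference between the KO and the WT effect was tested as an interaction, taken as the KO effect minus the WT effect. It was called higher for 8 of 39 members (20.5%, beside 10.1% of all tested genes) and lower for 1 (2.56%, beside 7.67%). The median interaction was 0.04 over the members and -0.10 over all tested genes, with 20 members above 0 and 19 below. The members as a set thus did not shift, and the calls concern a subset. A higher value means that a gene fell less, or rose more, with OXA in KO than in WT mice. Myh4 had 2.06 ± 0.46 SE, adjusted p = 0.00459, Pvalb 1.56 ± 0.44 SE, adjusted p = 0.0179, and Tnni2 1.44 ± 0.36 SE, adjusted p = 0.00931. Mb, Actc1, Mybpc2, Myoz1 and Myl1 had 1.15 ± 0.33, 1.04 ± 0.33, 0.98 ± 0.30, 0.88 ± 0.29 and 0.80 ± 0.26. Their adjusted p-values were 0.0196, 0.0343, 0.03, 0.0414 and 0.0392. The slow troponin T gene Tnnt1 was the 1 member called lower (-2.32 ± 0.47 SE, adjusted p = 0.00234). Over the 25 alternatives Myh4 and Tnnt1 were called in each. Pvalb failed only with equal library totals (adjusted p = 0.0755), Tnni2 only with quantile normalization (0.140), and Mb only with no filter, equal totals or quantile normalization (up to 0.593). The calls of Actc1, Mybpc2, Myl1 and Myoz1 each ended when replicate 3 or 4 of WT OXA, replicate 2 or 4 of KO vehicle or replicate 3 of KO OXA was left out. For Actc1 the same held for replicate 3 of WT vehicle and of KO vehicle, and for Mybpc2 for replicates 3 and 4 of WT vehicle and replicate 1 of KO vehicle. For Myl1 it held for replicates 1 and 4 of WT vehicle, replicate 2 of WT OXA, replicates 1 and 3 of KO vehicle and replicate 1 of KO OXA. For Myoz1 it held for replicates 1, 3 and 4 of WT vehicle, replicate 2 of WT OXA, replicate 1 of KO vehicle and replicates 1 and 4 of KO OXA. In those fits the adjusted p-values of these 4 genes ran from 0.0520 to 0.0899. All 4 were also lost with no filter, with equal totals and with quantile normalization, Mybpc2 and Myoz1 with libraries thinned to equal reads, and Myoz1 with edgeR. Equal library totals moved the median interaction of all genes by -0.42 and gave 2 members higher and 5 lower. Of all 16748 tested genes, 883 were higher and 3459 lower in that fit. Quantile normalization gave 2 and 4 members, beside 1656 and 1475 of all tested genes. In both fits the share of members called higher was no larger than that of all tested genes. Without KO OXA replicate 4, 7 members were called higher and 3 lower, beside 1934 and 1543 of 16522 tested genes.

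Under vehicle, 0 of the 39 tested members were called between KO and WT mice by limma, edgeR or DESeq2, beside 0.0358% of all tested genes called higher and 0.0239% lower. For 1 member DESeq2 gave no adjusted p. Limma gave 1 member higher at an unadjusted p under 0.05, Mybpc2 (0.63 ± 0.21 SE, adjusted p = 0.435). The widest value below 0 was that of Myh2, at -1.03 ± 0.50 SE, adjusted p = 0.546.

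Under OXA, 10 of 39 members were higher in KO than in WT mice (25.6%, beside 14.6% of all tested genes) and 2 were lower (5.13%, beside 12.9%). This comparison shares the WT OXA libraries with the WT effect and the interaction, so it is no separate evidence. Mybpc2, Pvalb, Tnni2 and Myh4 were higher by 1.62 ± 0.21, 1.69 ± 0.31, 1.42 ± 0.26 and 1.42 ± 0.33 on the log2 scale. For Mybpc2 the KO OXA libraries stood at 1595, 2041, 2539 and 2304, all above the WT OXA libraries. Tnnt3, Myoz1, Mb, Ckm, Myl1 and Eno3 were higher by 0.81 to 1.07. Tnnt1 had -2.72 ± 0.33 (adjusted p = 5.97e-06), with every KO OXA library under every WT OXA library. Myh2 was the other member called lower (-1.37 ± 0.50 SE, adjusted p = 0.0466), at 23.8, 44.1, 32.2 and 67.8 in KO OXA, which overlaps WT OXA. Leaving out replicate 1, 2 or 3 of KO OXA ended that call, as did replicate 1 or 2 of WT OXA, replicate 1, 3 or 4 of KO vehicle, and replicate 1 or 3 of WT vehicle, at adjusted p-values from 0.0517 to 0.165. Ckm was not called without WT OXA replicate 3 or 4 (adjusted p = 0.102 and 0.124) or KO OXA replicate 1, 3 or 4 (0.0615, 0.0870 and 0.0702). Eno3 was not called without WT OXA replicate 3 or 4 (0.0829 and 0.0770) or KO OXA replicate 3 or 4 (0.0529 and 0.0554). With equal totals and with quantile normalization Ckm, Eno3, Myl1 and Tnnt3 were not called (up to 0.758, 0.270, 0.414 and 0.277), and Mb was not called with quantile normalization alone (0.468). Ckm and Myh2 were also lost with no filter and with only the groups compared. Just over the threshold lay Actc1 at 0.63 (adjusted p = 0.0503), called in 6 alternatives, and Casq2 at -0.44 (adjusted p = 0.0630), called in 7. Without KO OXA replicate 4 the counts were 9 higher and 4 lower, beside 2565 and 2329 of 16522 tested genes. Equal library totals moved the median of all genes by -0.39 and gave 6 members higher and 5 lower. Of all 16748 tested genes, 1273 were higher and 5111 lower in that fit. Quantile normalization gave 5 and 6 members, beside 2455 and 2488 of all tested genes.

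Genes of the same machinery outside the 41 members were counted from lists drawn up with earlier results of these data known. In WT mice after OXA 16% of all tested genes were called lower and 18% higher, and the following counts stand beside those shares. Muscle energy metabolism had 15 of 26 tested genes lower (57.7%) and 0 higher. Its genes with the smallest p were Fbp2, the muscle fructose bisphosphatase, at -2.21 ± 0.22 (SE, adjusted p = 4.93e-07), Cox7a1, a subunit of cytochrome oxidase, at -1.31, and Pdk4, a brake on glucose oxidation, at -1.34. Sarcomere partners had 9 of 31 lower (29%) and 1 higher, led by Lmod3, an actin filament nucleator, at -1.82, Smpx at -0.98 and the light chain Myl6b at -1.47. Excitation-contraction coupling had 7 of 27 lower (25.9%) and 2 higher. The calcium channel subunit Cacng1 was at -1.44 and the pump regulator Fxyd1 at -0.97. Atp2a2, a calcium pump of slow and cardiac muscle that many other cell types also express, rose by 0.72 ± 0.13 (adjusted p = 0.000348).

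Neuromuscular junction genes had 4 of 12 lower (33.3%) and 0 higher, among them agrin (Agrn, -0.86), its receptor kinase Musk (-1.07) and acetylcholinesterase (Ache, -1.39). The dystrophin complex and muscle membrane had 4 of 15 lower (26.7%) and 0 higher, led by Sspn at -0.99, Popdc3 at -0.82 and Sntb1 at -0.68. Myogenic regulators and satellite cell genes were split, with 3 of 24 higher and 3 lower (12.5% each), under the share of all tested genes in both directions. Mef2a, a transcription factor of the MEF2 family, rose by 0.93 and Mstn, the growth inhibitor myostatin, by 1.10. Prox1, a factor of slow fibres that other cell types also express, rose by 1.77 (adjusted p = 0.0177). Against these risers, 3 genes of the same list were lower, Musk (-1.07) among them. Genes of denervation, atrophy and regeneration had 3 of 19 higher (15.8%, under the share of all tested genes) and 5 lower (26.3%), with Runx1 at 1.49, Foxo1 at -0.85 and Cdkn1a at -1.30, genes that many other cell types also express. Ankrd2, a stretch-responsive protein of slow fibres named here after its value was seen, went from a mean of 4.90 in WT vehicle to 51.0 in WT OXA (4.04 ± 0.84, adjusted p = 0.00103). Musk is counted in the myogenic list as well, Mstn also among the denervation genes, and Cryab, a sarcomere partner that fell (-1.10), also among the nerve markers. In KO mice 0 genes of these lists were called in either direction.

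Some markers of other cell types moved as well, to be read beside the same shares of all tested genes, and their part in the fibre genes' results was not tested. Squamous epithelium markers, which the labelled tissue should hold, summed to 1290960 to 1892030 in WT vehicle and 455518 to 746062 in WT OXA, and in KO mice to 1358530 to 1669840 and 1261860 to 2745470. Most of the sum was Krt4, at 926888 to 1440620 in WT vehicle and 290427 to 498260 in WT OXA, which was not called in WT (-1.75, adjusted p = 0.0532). Single markers went both ways in WT, with Krt14 (2.04), Dsg3 (1.34) and Cdh1 (0.63) higher, Krt15 (-2.38), Krt13 (-1.16) and Sfn (-0.83) lower and 6 of 12 not called. Smooth muscle, the other contractile tissue of the organ, had 6 of 11 markers lower in WT OXA and 0 higher, with a summed level of 28485 to 53705 in WT vehicle and 19873 to 35423 in WT OXA. In KO mice 0 of the 11 were called. Leukocyte markers had 7 of 9 tested higher in WT and 6 of 9 in KO, where 1.81% of all tested genes were higher. Their sums were 3570.3 to 4604 in WT vehicle and 7156 to 7974 in WT OXA, and 2160 to 4021 and 5038 to 10492 in KO. Airway and lung markers summed to 35769 to 54373 in WT vehicle and 626 to 1058 in WT OXA. In KO mice they summed to 25506 to 34084 and 17178 to 32858. Nearly all of these sums came from Cyp2f2, at 35726 to 54185 in WT vehicle and 589 to 1032 in WT OXA. The next highest marker, Scgb1a1, reached at most 161 in any library. Of these 9 markers 4 could be tested in WT, and Cyp2f2 (-5.62) and Scgb1a1 (-3.06) were lower while Bpifb1 (0.68) and Sftpc (0.57) were not called. The adipocyte sums overlapped in WT and had 0 of 6 tested markers called, and nerve and Schwann cell markers had 2 of 12 lower in WT (16.7%), Uchl1 and Cryab. Fibroblast markers summed to 69222 to 97683 in WT vehicle and 70446 to 79949 in WT OXA, with 1 of 8 lower (Dpt, -0.55) and a median log2 fold change of -0.08.

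Several members are also cardiac genes, so cardiac markers were read beside them. Nkx2-5 was at 0 in all 16 libraries, and Nppa, Myh6, Mybpc3 and Tnni3 reached at most 2.23, 5.52, 3.94 and 7.09 in any library. Nppb, too scarce to test, ranged from 0 to 8.26 in WT vehicle and from 4.11 to 54.8 in WT OXA, and reached at most 3.15 in KO mice. Gata4 reached 24.7 and was tested but not called in WT (-0.15, adjusted p = 0.931). Of the 11 cardiac markers 5 could be tested, and 4 were lower in WT OXA: Sbk2 (-1.83), Myl7 (-1.86), Myl4 (-0.65) and Tnnt2 (-0.58). Of all tested genes 16% were lower in that comparison. In KO mice Tnnt2 was the 1 cardiac marker called lower with OXA, at -0.81 (adjusted p = 0.0416). Cardiac sums were 6501 to 10566 in WT vehicle and 1583 to 4653 in WT OXA, most of it from Sbk2.

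Within WT OXA the fibre genes varied together. The titles give 2 of these libraries a code with the letter C (replicates 1 and 2) and 2 the letter D (replicates 3 and 4), and the labels do not say what the letter stands for. Both C libraries were above both D libraries in 33 of 39 tested members (84.6%), beside 18.4% of all tested genes. The opposite order held for 0 of 39 members, beside 21% of all tested genes. This grouping was looked at after the values were seen. Each letter occurs in 1 group only, so over the whole series it cannot be told apart from genotype and treatment.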

How the data were processed

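RNA of mouse esophagus was sequenced as 16 CEL-Seq libraries on a NextSeq 550, per the labels' protocols. Per the submitters' processing notes, the authors used FastQC 0.11.5, Trim Galore, cutadapt 1.10, TopHat2 2.1.0, Bowtie2 2.2.6, HTSeq 0.6.1 and DESeq2 1.28.0 with GRCm38. Not given in the sources used here are the annotation release and the use of molecular identifiers. The values the authors deposited are a signal that is never negative, counts per gene divided by 1 size factor per library. Of the low values, 100% were whole multiples of 1 step within 0.1 of a read, so reads were recovered and gave the depth. Replicates of a group differed by far more than counting noise (24 pairs, chi-square per degree of freedom of 13.7 to 87.1).

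Tests were run with limma (version 3.58.1, R 4.3.3). The model was fitted to log2(value + 1), with 4 group means over 16 libraries, a trended prior, two-sided p-values and Benjamini-Hochberg adjustment over the 16748 genes that reached a value of 5 in 4 or more libraries. The value + 1 understates changes of low genes. Alternatives were pseudocounts of 0.5 and 5, no filter, a filter of 20, equal library totals, quantile normalization, only the groups compared, edgeR 4.0.16 and DESeq2 1.42.0 on the recovered reads, thinning to 5.61 M reads, each library left out, and, chosen after the values were seen, the digit of the title code as a block. The procedure was run on simulated counts for the WT comparison, with independent libraries and the same scatter for every gene. That differs from these data, so it does not check the calls given here. The members and lists were chosen with earlier results of these data known. Values per library are given for the fast and slow myosin heavy chains, the troponins and every other member called in any comparison, and up to 3 genes per related list with the smallest p in WT. Planned ratios with Tnnc1, Myh7 and Myl2 were not formed because these genes had few or no reads. From the related list of the dystrophin complex and muscle membrane, 1 gene is not reported here and was left out of the counts.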

Additional observations from a re-analysis of the deposited data

Results flagged for a closer look

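The effect of OXA differed between KO and WT mice for 9 members, by the interaction in limma (KO effect minus WT effect, log2). The values were 2.06 for Myh4, 1.56 for Pvalb, 1.44 for Tnni2, 1.15 for Mb, 1.04 for Actc1, 0.98 for Mybpc2, 0.88 for Myoz1, 0.80 for Myl1 and -2.32 for Tnnt1. All but Tnnt1 are genes that fell in WT mice and were not called in KO mice.

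In 4 of 156 groups of 4 libraries, 1 library lay far from the others, and chance flags about 1 in 20 such groups. Tnnc1 was 10.8 in WT vehicle replicate 2 and 0 in the other vehicle libraries of that genotype. Ttn was 35262 in WT vehicle replicate 1 against 19347 to 20885 in the others. Myoz2 was 364 in KO vehicle replicate 4 against 192 to 215, and 308 in KO OXA replicate 1 against 187 to 206.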

How the results depend on the processing

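Title codes hold a letter and a digit, and some digits recur across groups, but the labels do not say that a digit pairs libraries, and WT OXA has 1 digit in 2 libraries. Over tested genes, deviations from the group means correlated at a median of 0.0057 in 20 pairs of libraries of different groups with the same digit and -0.0032 in 76 other pairs, so the digit was not taken as a pairing. With the digit as a replicate block, an alternative chosen after seeing the data, all 16 WT calls held and Myh8 was added as lower, 1 member (Myh8) was lower in KO mice, and 7 of 9 interaction calls held (Actc1 and Myl1 lost). Of the KO against WT calls under OXA 11 of 12 held, Myh2 being lost, which left 1 lower, while Pygm and Chrna1 were added as higher.

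Of the WT calls, 10 of 16 held in all 26 other alternatives (Actc1, Chrna1, Eno3, Mybpc2, Myh4, Myoz1, Pvalb, Tnni2, Tnnt1 and Tnnt3). Ckm, Mb, Myl1 and Myl3 were lost only with quantile normalization, at adjusted p-values of 0.0667, 0.0566, 0.268 and 0.0952. Of the interaction calls 2 of 9 held in all 25 alternatives, and of the KO against WT calls under OXA 6 of 12 held in all 26.

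The number of members higher in WT was 2 with a pseudocount of 5, with a filter of 20 and with thinned reads, 3 with equal totals, quantile normalization, only the groups compared, edgeR or DESeq2, and 1 to 3 with a library left out. The number lower was 9 with quantile normalization. In KO mice the number lower was 0 to 5 with a library left out, the 5 arising without KO OXA replicate 4. Interactions higher were 3 with no filter, 2 with equal totals, 2 with quantile normalization and 4 to 8 with a library left out. Interactions lower were 5 with equal totals, 4 with quantile normalization and 1 to 3 with a library left out. Under OXA, the members higher in KO were 6 with equal totals and 5 with quantile normalization. Those lower were 1 with no filter or only the groups compared, 5 with equal totals, 6 with quantile normalization and 1 to 4 with a library left out. Counts over all tested genes also moved with the setting. They are given above for equal totals, quantile normalization and the fit without KO OXA replicate 4. The causes of these shifts were not tested.

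Among values not called, Myh2 in WT changed sign, at 0.12 with equal totals and -0.58 to 0.13 with a library left out, as did Tnni1, at 0.0516 with equal totals, and Tnnc2, at -0.0019 to 0.29 with a library left out. The log2 ratio of Tnnt1 to Tnnt3 in KO OXA was -11.17 with a pseudocount of 5. Myh7, Myl2 and Tnnc1 had too few reads for any statement on their change.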
